A study of Rattus with 4 samples.

Results

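A set of 10 genes of heart muscle contraction and calcium handling was followed in RNA precipitated with an antibody to NONO and in input RNA. NONO is a nuclear RNA-binding protein. The members were Myh6, Myh7, Ttn, Tnnt2, Actc1, Atp2a2, Cacna1c, Ryr2, Gja1 and Nppb, and were matched by symbol among the 13731 genes of the deposited count table. All 10 members had a row there. The study used RNA immunoprecipitation sequencing (RIP-seq), which sequences the RNA that comes down with an antibody to a protein and sets it beside the starting RNA. The comparison was between 2 NONO IP libraries, made with an anti-NONO antibody, and 2 Input libraries made with no antibody. The labels also give the NONO IP libraries a transfection with NONO siRNA and the Input libraries one with empty vector, so precipitation and knockdown cannot be told apart. All 4 came from a cultured rat cardiac line, which the growth protocol calls fibroblasts and the titles call H9C2, a line of embryonic rat heart myoblasts. Nothing in the labels says that replicates were separate cultures, so p-values measure only the spread between these libraries, and no library with a control antibody was analysed here.

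In a heart muscle cell, calcium enters through the L-type channel and triggers release of more calcium from the sarcoplasmic reticulum through the ryanodine receptor. Calcium binding to troponin then lets myosin pull on actin, and relaxation follows when the SERCA pump returns calcium to the store. Connexins carry the electrical signal from cell to cell, and stretched heart muscle secretes natriuretic peptides. Cardiac fibroblasts have no such sarcomeres, but they use the SERCA pump and connexin 43 as most cells do.

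Gene counts summed to 279410 and 264059 in the NONO IP libraries and to 249548 and 238776 in the Input libraries. At this depth 3 reads correspond to 9.17 and 9.66 CPM in the NONO IP libraries and 14.2 and 14.6 CPM in the Input libraries, where CPM are counts rescaled to a shared total after scaling by TMM (trimmed mean of M-values). The library totals behind the deposited RPKM values (reads divided by gene length and by a library total) were larger in the NONO IP libraries, by 2.38-fold over those of the Input, so RPKM and scaled counts place the groups differently. Nono itself had 3 and 3 reads in the NONO IP libraries, against 21 and 9 in the Input libraries (log2 fold change −2.64, SE 0.58, edgeR adjusted p = 0.000772 over all listed genes). With DESeq2 size factors this was not called (adjusted p = 0.132), nor was it without NONO IP replicate 1 (adjusted p = 0.425), NONO IP replicate 2 (0.393) or Input replicate 1 (0.0682), or by the DESeq2 Wald test (0.0641).

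Markers of the heart muscle cell were scarce. Of 20 cardiomyocyte markers, 8 had no row in the table used here, among them the ventricular and atrial light chain genes Myl2 and Myl7 and the troponin I gene Tnni3. The 12 listed markers summed to 78 and 75 reads in the NONO IP and to 56 and 78 in the Input. Tnnt2 alone held 64 and 59 of these reads in the NONO IP and 16 and 39 in the Input. Pln, which encodes the SERCA inhibitor phospholamban, had 0 and 0 reads in the NONO IP libraries and 0 and 1 in the Input libraries. Skeletal myoblast markers summed to 2 and 5 reads in the NONO IP and 11 and 10 in the Input, with Myod1, Myog and Myf5 without a row. Smooth muscle and pericyte markers summed to 627 and 628 reads in the NONO IP and 948 and 923 in the Input. Fibroblast markers summed to 20403 and 19366 reads in the NONO IP and 19483 and 18661 in the Input, most of them on collagen genes. Endothelial markers had between 1 and 6 reads per library, and macrophage and leukocyte markers had 4 and 1 reads in the NONO IP and 14 and 14 in the Input. In scaled CPM the summed smooth muscle markers ranged from 1916 to 2023 in the NONO IP and from 4492 to 4503 in the Input, and the fibroblast markers from 62340 to 62380 in the NONO IP and from 90810 to 92530 in the Input. The raw fibroblast reads overlapped between the groups, so their gap in scaled CPM depends on the scaling. Of 8 tested genes in each of these lists, 6 were called lower, while 26.9% of all tested genes were. In the fibroblast list 1 gene was called higher, Pdgfra (log2 fold change 1.04, edgeR adjusted p = 0.0162), and in the smooth muscle list 0 were. The part of these other cell types in the results below was not tested. Marker reads cannot tell apart fewer cells of a type, less RNA per cell and less of the RNA precipitated.

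The 10 members together held 332 and 269 reads in the NONO IP libraries and 179 and 182 in the Input libraries. Atp2a2 and Tnnt2 made up 86.9% of the member reads in the NONO IP and 64.0% in the Input. Levels could be compared between genes on the RPKM scale, which divides by gene length. In the NONO IP, Tnnt2 averaged 48.7 ± 0.566 RPKM (SD, n = 2, as for the other levels here) and Atp2a2 39.1 ± 5.24 RPKM. Far below them were Cacna1c and Gja1, whose NONO IP values of 2.07 and 2.28 RPKM and of 2.03 and 2.24 RPKM overlapped, and then Myh6 at 1.19 ± 0.311 RPKM. In the Input, Tnnt2 and Atp2a2 again came first and overlapped, with 52.2 ± 31.9 and 41.2 ± 0.382 RPKM. Gja1 followed at 13.0 ± 3.83 RPKM and Cacna1c at 6.13 ± 0.757 RPKM, which did not overlap. Myh6 (4.63 ± 0.424 RPKM) and Myh7 (4.39 ± 0.113 RPKM) overlapped in the Input, while in the NONO IP Myh6 lay above Myh7 at 0.370 ± 0.0283 RPKM. Ttn did not exceed 0.27 RPKM and Ryr2 did not exceed 0.30 RPKM in any library.

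**Figure D1:**
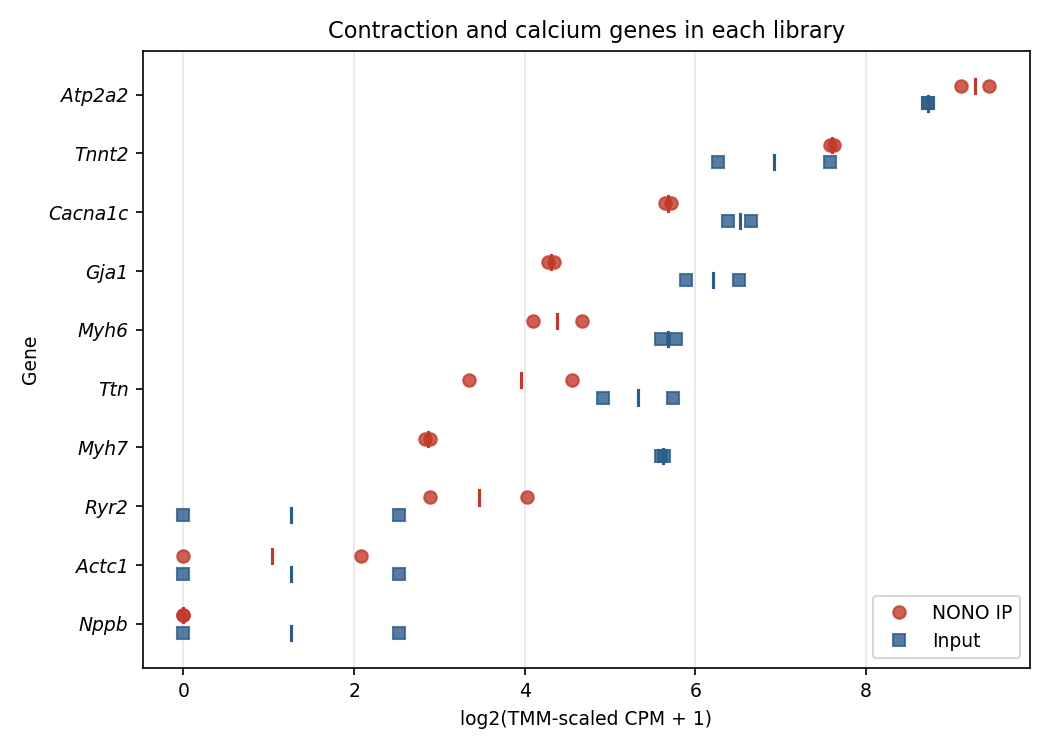
Level of each of the 10 genes in each library, as log2 of the TMM-scaled CPM plus 1 on the horizontal axis, with NONO IP libraries as red circles, Input libraries as blue squares and the group mean as a vertical bar. NONO IP points lie to the right of the Input points for Atp2a2 and Ryr2 and to the left for Myh7, Gja1, Cacna1c, Myh6 and Ttn, while an Input library of Tnnt2 lies beside its NONO IP libraries.

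Which members were more or less abundant in the NONO IP was tested with edgeR's quasi-likelihood test on TMM-scaled counts, with Benjamini-Hochberg adjustment over 2920 genes that passed a filter on low counts. Of the 10 members, 6 passed the filter. Myh7, Gja1, Myh6 and Cacna1c were lower in the NONO IP, Atp2a2 was higher, and Tnnt2 did not pass the threshold of 0.05. Across all tested genes 26.9% were called lower and 29.8% higher. Myh6, Myh7 and Gja1 passed the filter through their Input libraries only, so the number of lower members is no support for a general fall. With no count filter, where 4.73% of 13731 genes were called lower and 8.59% higher, Myh7 and Gja1 were lower and Atp2a2 and Tnnt2 were higher. By the DESeq2 Wald test, which called 14.5% lower and 15.5% higher, 2 members were lower and 0 were higher. The 4 lower calls became 0 without Input replicate 1, where Myh7 was not tested and 17.9% of all genes were called lower. They became 2 without NONO IP replicate 1, NONO IP replicate 2 or Input replicate 2, where 18.4%, 20.6% and 19.4% of all genes were called lower.

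Among the sarcomere genes, both cardiac myosin heavy chain genes were called lower, Myh7 by more than Myh6. Myh6 encodes the fast alpha chain, the main one of the adult rat ventricle, and Myh7 the slow beta chain of the fetal and stressed heart. Both lie on chromosome 15. Myh7 had 2 and 2 reads in the NONO IP libraries and 10 and 10 in the Input libraries. The replicates of each group were equal, and both NONO IP libraries were below both Input libraries, as for 38.1% of tested genes. Its level averaged 6.28 ± 0.234 CPM in the NONO IP and 48.1 ± 0.826 CPM in the Input (SD, n = 2). This was a log2 fold change of −2.82 (SE 0.55, edgeR adjusted p = 0.000336). The DESeq2 Wald test gave −2.91 with a larger SE of 1.11 (adjusted p = 0.0334). Pooled and scaled reads gave an Input to NONO IP ratio of 7.66, with an exact conditional 95% interval of 2.57 to 30.8. The interval covers counting error only.

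Myh6 had 8 and 5 reads in the NONO IP libraries and 10 and 11 in the Input libraries. Its NONO IP libraries were both below its Input libraries, as was so for 38.1% of all tested genes. It changed by −1.26 on the log2 scale (SE 0.45, edgeR adjusted p = 0.0237). This call did not survive leaving out any library (adjusted p between 0.120 and 0.267), library totals (0.153) or the DESeq2 Wald test (0.250). Myh6 reads per Myh7 read, a ratio that no library scaling can alter, were 4.0 and 2.5 in the NONO IP and 1.0 and 1.1 in the Input. Pooled, the ratio was 3.25 (exact 95% interval 1.00 to 13.7) in the NONO IP and 1.05 (0.542 to 2.04) in the Input, and the intervals overlapped. The myosin heavy chains are near-identical in sequence over long stretches, so how reads were divided between Myh6 and Myh7 is uncertain.

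Titin, the giant elastic protein that spans from Z-disc to M-line, is encoded by Ttn on chromosome 3. Ttn had 3 and 7 reads in the NONO IP libraries and 11 and 6 in the Input libraries. The raw reads overlapped, and after scaling the NONO IP libraries were at 9.17 and 22.5 CPM, below the Input libraries at 52.2 and 29.2 CPM. It failed the count filter; over all listed genes it lay at −1.11 on the log2 scale (SE 0.59, edgeR adjusted p = 0.271). The length used for its RPKM was 33.7 times that of Gja1. With an offset for gene length, its change was −3.11 (adjusted p = 0.000104). That offset was fitted across genes, and the adjusted p takes it as known. The length of Ttn was the greatest in the wider lists below, so its value rests on the far end of the fit.

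Tnnt2, on chromosome 13, encodes cardiac troponin T, which ties the troponin complex to tropomyosin. It had 64 and 59 reads in the NONO IP libraries and 16 and 39 in the Input libraries. The NONO IP libraries lay close together, at 196 and 190.0 scaled CPM, while the Input libraries were far apart, at 76.0 and 189.8 CPM. On the log2 scale this gave 0.57 (SE 0.29, edgeR adjusted p = 0.106). Without Input replicate 2 it was 1.31 (adjusted p = 0.00233) and without Input replicate 1 it was 0.02 (adjusted p = 0.967). Input replicate 2 was 2.50-fold above Input replicate 1 for Tnnt2. Of 548 tested genes with 40 to 80 Input reads, 1, Tnnt2 itself, had Input replicates that far apart, and the median gene differed by 1.21-fold.

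Actc1, the cardiac alpha actin gene on chromosome 3, had 0 and 1 reads in the NONO IP libraries and 1 and 0 in the Input libraries, so no fold was computed. The protein it encodes is near-identical to that of Acta2, smooth muscle alpha actin. Acta2 had 166 and 153 reads in the NONO IP and 264 and 296 in the Input. Whether any reads were shared between the actins was not tested.

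Of the calcium genes among the members, Atp2a2 had the most reads. It encodes SERCA2, the pump that refills the reticulum with calcium, and lies on chromosome 12. It had 228 and 171 reads in the NONO IP libraries and 89 and 87 in the Input libraries, with only 99 genes above it in NONO IP reads and 190 in Input reads. Scaled levels averaged 624 ± 103 CPM in the NONO IP and 423 ± 0.468 CPM in the Input (SD, n = 2), and both NONO IP libraries were above both Input libraries, as for 39.9% of tested genes. On the log2 scale this was 0.59 (SE 0.15, edgeR adjusted p = 0.00245), a 1.51-fold difference. On the deposited RPKM scale the groups overlapped, at 42.8 and 35.4 RPKM in the NONO IP and 40.9 and 41.5 RPKM in the Input, and the log2 difference turned to −0.08 (limma on log2(RPKM + 1), adjusted p = 0.747).

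Cacna1c, on chromosome 4, encodes the pore of the L-type calcium channel. It had 16 and 16 reads in the NONO IP libraries and 21 and 17 in the Input libraries. After scaling, both NONO IP libraries (48.9 and 51.5 CPM) were below both Input libraries (99.7 and 82.7 CPM), as for 38.1% of tested genes. On the log2 scale Cacna1c lay at −0.83 (SE 0.34, edgeR adjusted p = 0.0476), just inside the threshold. The call was lost with library totals (−0.37, adjusted p = 0.375), by the DESeq2 Wald test (adjusted p = 0.290) and without NONO IP replicate 1 (0.189), NONO IP replicate 2 (0.121) or Input replicate 1 (0.193). The length behind its RPKM was 2.61 times that of Gja1, although Cacna1c has far longer introns, so the length was not that of the whole gene with introns.

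Ryr2, on chromosome 17, encodes the cardiac ryanodine receptor. It had 5 and 2 reads in the NONO IP libraries and 1 and 0 in the Input libraries. The ratio of NONO IP to Input was 4.57 with an exact conditional 95% interval of 0.587 to 206, and the adjusted p was 0.297 in edgeR over all listed genes. A difference in either direction was not detectable at this depth.

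Gja1, on chromosome 20, encodes connexin 43, the main gap junction protein of the working heart and of its fibroblasts. It had 6 and 6 reads in the NONO IP libraries and 19 and 12 in the Input libraries. Both NONO IP libraries were below both Input libraries, as for 38.1% of tested genes. The NONO IP libraries were closer together than the Input libraries, at 18.8 ± 0.702 CPM in the NONO IP and 74.3 ± 22.5 CPM in the Input (SD, n = 2). On the log2 scale the difference was −1.93 (SE 0.44, edgeR adjusted p = 0.00128), a 3.81-fold lower level in the NONO IP. The DESeq2 Wald test gave −1.95 with a larger SE of 0.78 (adjusted p = 0.0432). The call ended without Input replicate 1 (−1.61, adjusted p = 0.1005).

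Nppb, on chromosome 5, encodes B-type natriuretic peptide. It had 0 and 0 reads in the NONO IP libraries, which allows up to 9.17 and 9.66 scaled CPM by counting error, and 1 and 0 in the Input libraries. Nothing can be said of its direction.

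Ratios between members do not depend on the scaling of the libraries; the pairs given here were chosen with their values known. Atp2a2 reads per Cacna1c read were 14.2 and 10.7 in the NONO IP and 4.24 and 5.12 in the Input. Pooled, this was 12.5 (exact 95% interval 8.69 to 18.5) in the NONO IP and 4.63 (3.25 to 6.76) in the Input. Atp2a2 reads per Gja1 read were 38.0 and 28.5 in the NONO IP and 4.68 and 7.25 in the Input, or 33.2 (18.8 to 64.9) and 5.68 (3.86 to 8.61) when pooled. The intervals of these pairs did not overlap between groups. Atp2a2 reads per Tnnt2 read overlapped between the groups, at 3.56 and 2.9 in the NONO IP and 5.56 and 2.23 in the Input. Pooled, this was 3.24 (2.64 to 4.0) in the NONO IP and 3.20 (2.35 to 4.41) in the Input. The Input libraries lay on either side of the NONO IP libraries, so the close pooled values do not show a constant ratio. These intervals cover counting error only.

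The scalings placed the median gene differently. Over the 2920 tested genes, the median log2 difference was 0.02 with TMM, 0.48 with library totals, −0.14 with an offset for gene length, and −0.52 and −0.61 on the log2(RPKM + 1) and log2(RPKM + 0.1) scales. Relative to these medians, Atp2a2 lay between 0.44 and 0.57 on all 5 scales and Tnnt2 between 0.55 and 1.41. Myh7 lay between −2.97 and −1.45, Gja1 between −1.96 and −1.61, Myh6 between −1.41 and −0.84 and Cacna1c between −1.03 and −0.64. Setting each scale against its own median removes any shift shared by all genes, and a gene's length cancels between the groups. The likeness of the TMM, library total and RPKM values is therefore largely built in. The RPKM values differ from the others mainly by the pseudocount, and only the length offset adjusts genes by another rule. Not set against the median of the tested genes, Atp2a2 changed sign on the RPKM scales.

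**Figure D2:**
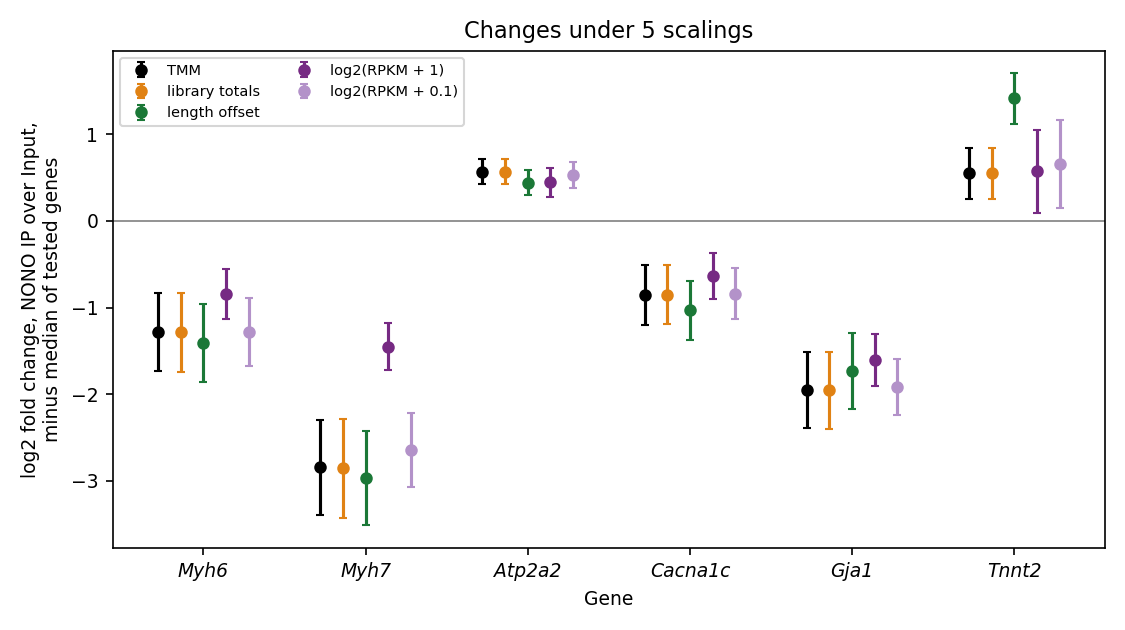
Log2 fold change of NONO IP over Input, minus the median of the 2920 tested genes, for the 6 tested members under 5 scalings (colours), with bars of 1 SE. Atp2a2 and Tnnt2 are above 0 and Myh6, Myh7, Cacna1c and Gja1 below 0 under each scaling shown.

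Change also varied with gene length across all tested genes. In 4 bins of 730 genes each by relative length, the median log2 fold change was −0.58 in the shortest, −0.12 and 0.14 in the middle bins and 0.68 in the longest. Cacna1c belonged to the longest bin and was lower in the NONO IP, while Tnnt2 belonged to the shortest and had a value above 0. With the offset for length, Tnnt2 was called higher (1.27, SE 0.29, edgeR adjusted p = 0.00153), Cacna1c stayed lower (−1.17, adjusted p = 0.00881), and Atp2a2 was no longer called (0.30, adjusted p = 0.101). Myh6 (−1.56, adjusted p = 0.00801), Myh7 (−3.11, adjusted p = 0.000148) and Gja1 (−1.87, adjusted p = 0.00190) kept their calls.

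**Figure D3:**
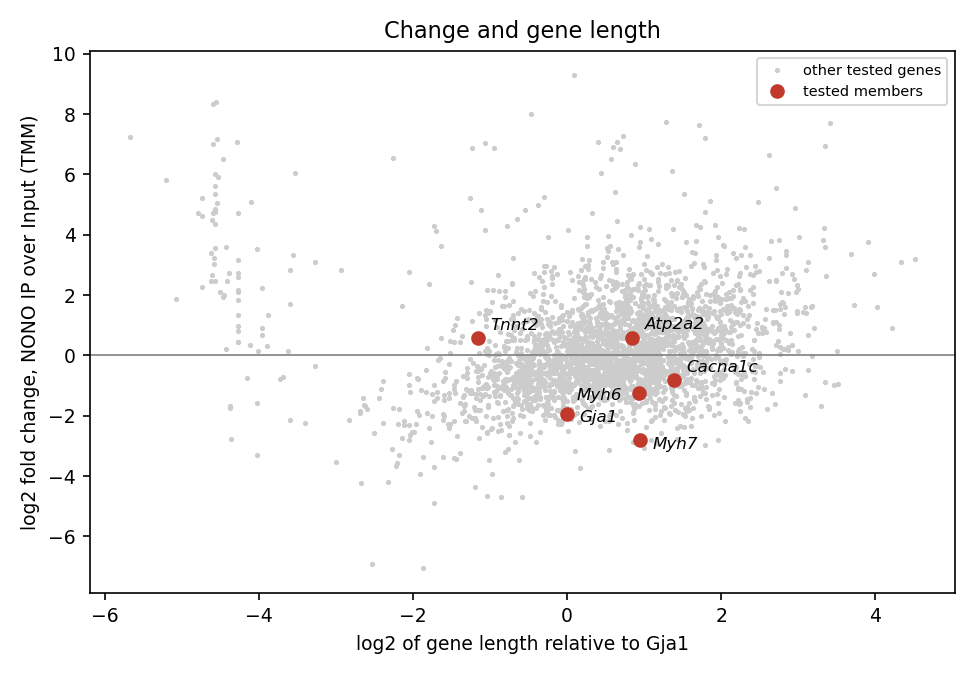
Log2 fold change of NONO IP over Input on the TMM scale against log2 gene length relative to Gja1, for all tested genes (grey) and the 6 tested members (red). Myh7 lies at −2.82, Myh6 at −1.26 and Gja1 at −1.93, and Atp2a2 at 0.59 has nearly the same length as Myh6 and Myh7.

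The wider machinery was read from 8 lists of 123 genes in all, members included, of which 102 had a row and 39 were tested. Without the members, 33 genes were tested, of which 10 were higher and 11 lower, with a median log2 fold change of 0.13 against 0.02 over all tested genes. These shares are near the 29.8% and 26.9% of all tested genes, and are not a result about the lists.

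In the contractile lists, both tested thick filament genes were the myosins described above. Of 5 thin filament genes, Tpm1, the main striated muscle tropomyosin gene, was higher (277 and 272 reads in the NONO IP, 125 and 117 in the Input; log2 fold change 0.60, SE 0.12, edgeR adjusted p = 0.000366), though it was −0.06 on log2(RPKM + 1) (adjusted p = 0.724) and −0.07 on log2(RPKM + 0.1) (0.668). Tpm2, beta tropomyosin, was lower (289 and 217 reads in the NONO IP, 242 and 252 in the Input; −0.55, SE 0.12, adjusted p = 0.000757), a call that ended with library totals (−0.09) and with the length offset (−0.09). All 4 tested Z-disc genes, of 12 listed, were called lower, at a median of −1.05, while 26.9% of all tested genes were. With no count filter, 2 of the 12 were called lower, so the count is no support for a fall of the list. Flnc, the muscle filamin, had 76 and 89 reads in the NONO IP and 121 and 138 in the Input (−1.24, SE 0.16, adjusted p = 4.19e-06). The chaperone gene Cryab was at −1.57 (adjusted p = 0.00190), the PDZ-LIM gene Pdlim5 at −0.56 (adjusted p = 0.0286) and the stretch-responsive Ankrd1 at −0.87 (adjusted p = 0.0497). Cryab, which passed the count filter through its Input libraries only, lost its call with the length offset (−0.71, adjusted p = 0.132), and Pdlim5 lost it with library totals (−0.10) and without NONO IP replicate 1 (−0.32) or Input replicate 2 (−0.49), and by the DESeq2 Wald test (adjusted p = 0.218). Ankrd1 lost its call in 10 of 13 alternatives, among them library totals (−0.41), the length offset (−0.47), the replicate block (adjusted p = 0.0508), and fits without Input replicate 1 (−0.31) or NONO IP replicate 1 (−0.45).

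Of 8 tested genes of calcium channels, stores and pumps, 3 were higher and 3 lower, against 29.8% and 26.9% of all tested genes. Beside Atp2a2, the plasma membrane calcium pump gene Atp2b1 was higher, with 70 and 58 reads in the NONO IP libraries and 9 and 11 in the Input libraries (log2 fold change 2.08, SE 0.30, edgeR adjusted p = 1.78e-05). Asph, whose locus also encodes the reticulum protein junctin and which passed the filter through NONO IP libraries only, was higher at 1.35 (adjusted p = 0.0308), but not with the length offset (0.55, adjusted p = 0.409) nor without Input replicate 1 (0.72), NONO IP replicate 1 (1.30) or NONO IP replicate 2 (1.49). Beside Cacna1c, the IP3 receptor gene Itpr1 was lower, with 34 and 27 reads in the NONO IP libraries and 36 and 44 in the Input libraries (−0.98, SE 0.26, adjusted p = 0.00378), and so was the calcium-binding chaperone gene Calr (−0.46, adjusted p = 0.0163). Itpr1 was not called with library totals (−0.52, adjusted p = 0.0975), by the DESeq2 Wald test (0.0694) or with no count filter (0.0511), and Calr lay at 0.00 with library totals and −0.01 with the length offset. The junctional gene Jph2 (0.33, adjusted p = 0.114) and the sodium-calcium exchanger gene Slc8a1 (0.13, adjusted p = 0.770) did not pass. Slc8a1 turned to −1.58 with the length offset (adjusted p = 0.00164), and Jph2 was called with library totals (0.79, adjusted p = 0.000750).

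Downstream of calcium, 3 of 5 tested genes of calcium-dependent kinases and calcineurin signalling were higher, against 29.8% of all tested genes. Ppp3ca, the catalytic subunit of calcineurin, had 57 and 47 reads in the NONO IP libraries and 6 and 6 in the Input libraries (2.51, SE 0.35, edgeR adjusted p = 1.14e-05). Rcan1, an inhibitor of calcineurin, had 34 and 29 reads against 8 and 4 in the Input (1.79, SE 0.41, adjusted p = 0.00125). Nfatc1, a transcription factor that calcineurin activates, had 72 and 67 reads against 14 and 13 in the Input (1.77, SE 0.27, adjusted p = 3.05e-05). Only the NONO IP libraries carried Ppp3ca and Rcan1 over the count filter. Rcan1 was not called on log2(RPKM + 1) (1.09, limma adjusted p = 0.0913) or log2(RPKM + 0.1) (1.21, limma adjusted p = 0.116).

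The connexins did not share a direction. Gja5, connexin 40 of the atria and conduction system, was lower like Gja1, with 15 and 15 reads in the NONO IP libraries and 20 and 26 in the Input libraries (−1.20, SE 0.34, edgeR adjusted p = 0.00598). It was not called with library totals (−0.74, adjusted p = 0.0707), by the DESeq2 Wald test (0.0984) or with no count filter (0.0569). Gjc1, connexin 45, was higher, with 24 and 21 reads against 3 and 2 in the Input (2.54, SE 0.51, adjusted p = 0.000457). Gjc1 passed the filter through its NONO IP libraries only, and was not called on log2(RPKM + 0.1) (1.84, limma adjusted p = 0.0637). Jup, plakoglobin of the cell junctions, was lower (−0.98, adjusted p = 0.00282), though not called with library totals (−0.52, adjusted p = 0.0831) or by the DESeq2 Wald test (0.0565). Cdh2, N-cadherin, did not pass (0.41, adjusted p = 0.0587) but was called with library totals (0.87, adjusted p = 0.000443) and with no count filter (0.62, adjusted p = 0.0167).

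Of the natriuretic list, Furin, a protease that can cut the precursor of B-type natriuretic peptide, was lower (65 and 80 reads in the NONO IP, 92 and 83 in the Input; −0.85, SE 0.17, edgeR adjusted p = 0.000507), but was not called with library totals (−0.39, adjusted p = 0.0636). The receptor genes Npr2 (−0.45) and Npr3 (−0.39) did not pass. Of 6 tested heart transcription factor genes, 3 were higher and 0 lower, against 29.8% and 26.9% of all tested genes. Mef2d had 75 and 69 reads in the NONO IP libraries and 14 and 11 in the Input libraries (1.93, SE 0.27, edgeR adjusted p = 1.46e-05). Mef2a, of the same family, had 47 and 39 reads against 9 and 10 in the Input (1.58, SE 0.32, edgeR adjusted p = 0.000521). Mef2a was not called on log2(RPKM + 1) (0.78, limma adjusted p = 0.0848) or log2(RPKM + 0.1) (0.91, limma adjusted p = 0.0833). Mrtfa, a coactivator of serum response factor, was at 0.83 (adjusted p = 0.00916), or 0.26 with the length offset (adjusted p = 0.400). Its call was kept in 8 alternatives and lost in 6, among them the DESeq2 Wald test (adjusted p = 0.128). Gata4 (0.59, adjusted p = 0.166), Gata6 (−0.03) and Srf (0.48) did not pass. With library totals Gata4 (1.05, adjusted p = 0.0164) and Srf (0.94, adjusted p = 0.00596) were called higher.

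**Figure D4:**
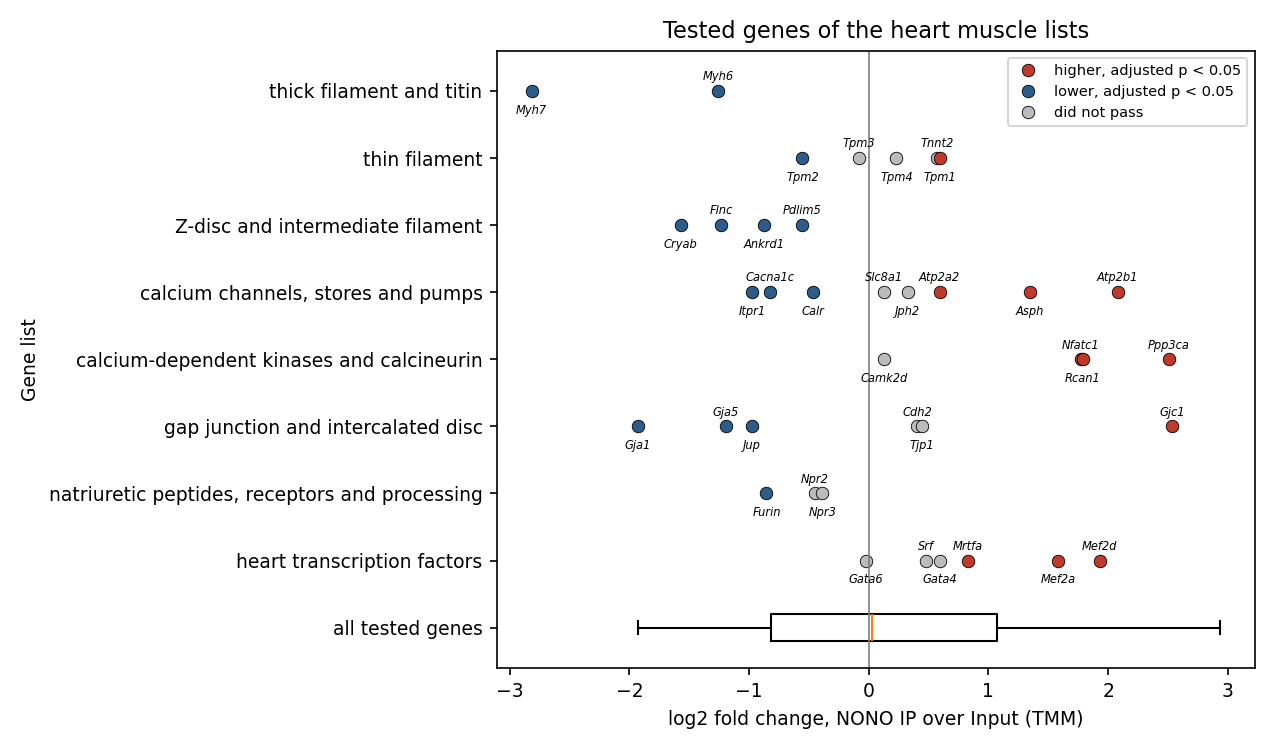
Log2 fold change of NONO IP over Input on the TMM scale for the tested genes of the 8 lists that are reported here, coloured red where higher and blue where lower at an adjusted p under 0.05 and grey otherwise. The box at the bottom shows all 2920 tested genes (median, quartiles, and whiskers at the 5th and 95th percentiles), and Myh7 at −2.82 lies beyond its lower whisker.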

How the data were processed

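The authors deposited raw whole-number counts for each gene in 4 libraries of rat RNA. They also deposited RPKM, named so per the file headers, in which a gene's count is divided by its length and a total for the library; the counts bear this out. The submitters' processing notes name HISAT2, HOMER and the build mRatBN7.2 without a role. How reads were counted (program, strand, multiple positions, annotation) is not given in the sources used, so near-identical genes are uncertain. Per the labels' protocols, polyadenylated RNA was captured on beads and a stranded kit was used.

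Counts were tested with edgeR 4.0.16 (R 4.3.3): filterByExpr, which required at least 38.9 CPM in 2 libraries and kept 2920 genes with at least 23 reads, TMM scaling and the quasi-likelihood test, tested on simulated data. The Benjamini-Hochberg threshold was 0.05, and SE is the log2 fold change over the root of F. Members below the filter were read from a fit over all genes. Relative gene length is the deposited count divided by RPKM, with library constants from 461 genes with at least 30 counts in each library. The length offset is a loess fit with span 0.5. Where 2 libraries reached an RPKM of 1, limma 3.58.1 was run on log2(RPKM + 1) or log2(RPKM + 0.1), whose fold changes understate those of low genes; DESeq2 1.42.0 gave a Wald test and size factors. Intervals are exact (Clopper-Pearson, 95%) and, like the floor of 3 counts, cover counting error only, as reads carry no molecular identifiers. Replicates differed by a chi-square per degree of freedom of 1.42 in the NONO IP and 1.12 in the Input, where 1 is sampling noise, and were kept as 2 per group.

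Members and lists were chosen with earlier results of these data known. Genes named are all members, those past the threshold in each list (at most 8), Nono, and marker genes; genes named as not passing, and other markers, were chosen after their values were seen. Some genes of the lists are not reported here. Of gene symbols, 91.6% matched RefSeq's GRCr8 table, used only for overlapping genes. Among listed genes, 1 overlapped a member, Dcp1b at Cacna1c, with 1 read in all.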

Additional observations from a re-analysis of the deposited data

How the results depend on the processing

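For the members, 1 higher call and 4 lower calls became 2 and 2 with library totals, 0 and 2 by the DESeq2 Wald test, 2 and 2 with no count filter, and 2 and 0 with at least 50 counts in 2 libraries; higher calls were 0 on both RPKM scales. Leaving out 1 library gave 1 to 2 higher and 0 to 2 lower. In the 8 lists, 11 higher and 15 lower became 18 and 5 with library totals; lower calls were 6 by the Wald test, 7 with no filter and 5 with at least 50 counts, and higher calls 5 and 4 on the RPKM scales (pseudocounts 1 and 0.1). Leaving out 1 library gave 9 to 12 higher and 8 to 12 lower. Over all genes, 871 higher and 786 lower became 453 and 423 by the Wald test and 254 and 247 with at least 50 counts; higher calls were 393 and 348 on the RPKM scales, and lower calls 444 with library totals and 1425 on log2(RPKM + 1). The higher share of calls was 52.6% with TMM, 73.3% with library totals, 64.5% with no filter, 42.6% with the length offset, and 21.6% and 23.3% on the RPKM scales.

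Myh6 lost its call with library totals (−0.80), the Wald test (−1.28), no count filter (−1.04), log2(RPKM + 0.1) (−1.89) and each library left out (−1.53 to −0.95). Cacna1c lost it with library totals (−0.37), the Wald test (−0.83), no filter (−0.61) and 3 of the 4 libraries left out; over all 4 it ranged from −1.01 to −0.72. Gja1 ranged from −2.26 to −1.61 over libraries left out. Atp2a2 lost its call by the Wald test (0.59, adjusted p = 0.0534) and with the length offset alone (0.30) or with the replicate block (0.30), and reversed on the RPKM scales (−0.080 and −0.082). Tnnt2 became a call with library totals (1.03), the length offset alone (1.27) or with the block (1.28), no filter (0.79) and at least 50 counts (0.53), and ranged from 0.021 to 1.31 over libraries left out. Ttn became a call with the length offset alone (−3.11) or with the block (−3.11); it lay from −1.84 to −0.68 over libraries left out. Tpm1 reversed on the RPKM scales (−0.064 and −0.065). Myh7 kept its direction and call wherever tested; it was not tested without Input replicate 1 or Input replicate 2, nor with at least 50 counts. The cause of these changes was not tested.

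Replicate numbers gave 2 pairs, whose deviations correlated at 0.049 across genes, so they share only a number. With the replicate block, member calls were 1 higher and 4 lower, list calls 11 and 14, and calls over all genes 870 and 806. Of 283 values of 21 further named genes under alternatives, 219 kept direction and side, 62 lost the call and 2 reversed. Ttn and Ryr2 had no value with at least 50 counts or on the RPKM scales, where they failed the filters; Ryr2 kept its direction and stayed uncalled elsewhere, save by the Wald test, where it had no adjusted p. Depth limits the members of few reads: edgeR SEs were 0.45 for Myh6, 0.55 for Myh7 and 0.44 for Gja1, against 0.15 for Atp2a2. The DESeq2 Wald test gave larger SEs, of 0.86 for Myh6, 1.11 for Myh7 and 0.78 for Gja1, against 0.25 for Atp2a2. The edgeR SEs may therefore understate the error of these members.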

Other observations

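Casq2, Des and Nfatc4 lay below the count filter, and were chosen after their values were seen. Casq2, calsequestrin of the cardiac calcium store, had 2 and 1 reads in the NONO IP libraries and 8 and 7 in the Input libraries. Pooled and scaled reads gave an Input to NONO IP ratio of 7.66, with an exact conditional 95% interval of 2.17 to 41.3 for counting error only. The adjusted p was 0.0119 in edgeR over all listed genes. Des, the intermediate filament desmin, had 2 and 4 reads in the NONO IP libraries and 8 and 7 in the Input libraries (adjusted p = 0.0936 over all listed genes). Nfatc4, another calcineurin-regulated factor, had 14 and 10 reads in the NONO IP libraries and 1 and 3 in the Input libraries (log2 fold change 2.16, edgeR adjusted p = 0.0212 over all listed genes).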
